A study of Mus musculus with 15 samples.

Results

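Collagens are secreted proteins whose chains wind into triple helices, and fibroblasts are their main source in connective tissue. The collagen genes were taken as every probe whose gene name in the scanner files, or whose symbol in brackets in the probe description, is Col followed by 1 or 2 digits, the letter a and 1 digit. That rule found 55 of 41174 probes, which stand for 35 of 33645 names on the array, and the brightest probe stood for each gene. All 35 had a signal well above background on all 3 arrays of at least 1 source by the scanner's lenient flag and were tested among 31343 genes.

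The study profiled mouse fibroblasts from 5 sources by 2-colour Agilent microarray, with 3 arrays for each source and 15 in all. The fibroblast RNA was in Cy5, and a commercial pool of mouse reference RNA was in Cy3 on every array. TAF is taken to mean tumour-associated fibroblast, as the series title has it, and the labels do not spell out NSF or the tib names. The labels call NSF and TAF-tib6 sensitive (6 arrays), and they call the TAF-el4, TAF-tib42 and TAF-tib48 arrays resistant (9 arrays), in a study of tumours refractory to blocking the vessel growth factor VEGF. The labels give no strain, age, agent or passage, and do not say whether replicate arrays came from independent cultures, so the p-values speak for array-to-array spread that may be technical only. Every value below is a log2 ratio of a source to the reference RNA, so that 1 unit is a 2-fold change, and a difference between sources is a log2 fold change. The source of the RNA was bulk cells, in which fewer cells of a type and less RNA per cell cannot be told apart.

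Fibrillar collagens (types I, II, III, V, XI and XXVII here) build the banded fibres of tissue, and FACIT collagens (IX, XII, XIV, XVI, XIX) sit on the surface of those fibres. Collagen IV forms the sheet of basement membranes, collagen VI forms beaded filaments around cells, collagen VII anchors basement membranes, and collagen VIII, a short-chain collagen, forms open networks in vessel walls and the cornea. Multiplexins (XV, XVIII) lie in basement membrane zones, and the transmembrane collagens (XIII, XVII, XXIII, XXV) stay on the cell.

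The arrays of a source correlated over genes at 0.960 to 0.988, and the median SD between arrays of a source was 0.0659 for collagens and 0.0531 for all genes. All 12 fibroblast markers carried the scanner's well-above-background flag on every array. So did all 7 measured macrophage and all 7 measured lymphocyte markers, and 89.7% to 95.8% of spots on each array. The flag therefore does not tell cell types apart. Of these markers, Dcn (decorin, a proteoglycan that binds collagen fibrils) ranged most, from -3.03 ± 0.08 (SD, n = 3) in TAF-el4 to -0.01 ± 0.28 (SD, n = 3) in NSF. The slide numbers fall into 3 consecutive runs of 5 slides, called packs here. Pack 1 held NSF and 2 arrays of TAF-el4, pack 2 the other TAF-el4 array, TAF-tib42 and 1 array of TAF-tib48, and pack 3 the other TAF-tib48 arrays and TAF-tib6. The arrays were scanned source by source, so scan order and source cannot be told apart.

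The collagens differed widely among the 5 sources, and a few moved far more than the rest. An F test over the 5 source means in limma called 23 of 35 collagens (65.7%) at an adjusted p under 0.05, against 42.9% of all genes tested. The highest and lowest source means of a collagen lay a median of 0.59 apart, against 0.16 for all genes tested. In 9 collagens (25.7%) that span was 1 or more with a call, against 2.26% of all genes. These 9 were Col8a1, Col6a1, Col14a1, Col15a1, Col18a1, Col8a2, Col7a1, Col12a1 and Col2a1, whose probes disagreed. Of the 12 collagens without a call, 10 spanned 0.05 to 0.15, and the other 2, Col1a1 and Col1a2, were read by saturated probes.

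**Figure D1:**
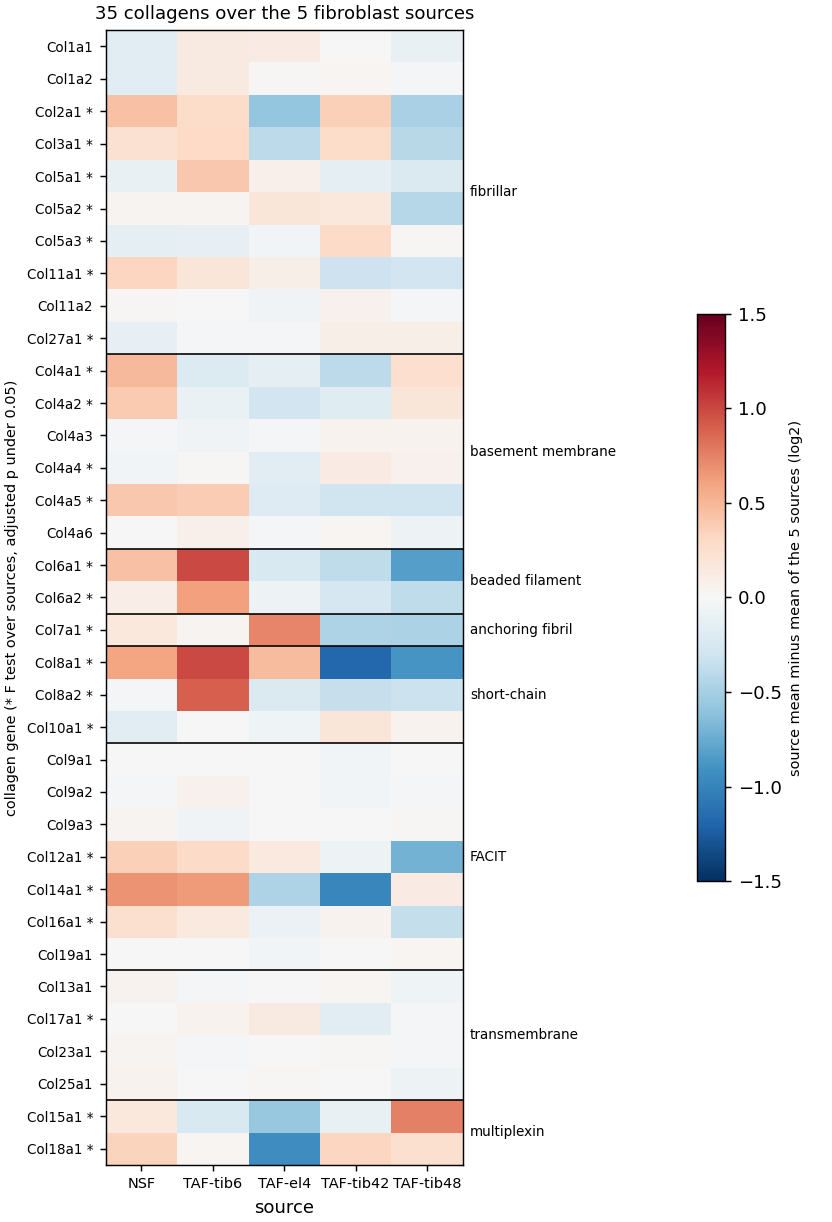
Source mean minus the mean of the 5 sources (log2, as colour) for the 35 collagens, ordered by type; an asterisk marks an adjusted p under 0.05 in the F test. The strongest colours lie in Col8a1, Col6a1, Col14a1, Col8a2, Col15a1 and Col18a1, while Col9a1, Col19a1 and Col23a1 are nearly blank; Col1a1 and Col1a2 were read by saturated probes.

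Among fibrillar collagens, the main chains of type I could not be ranked on their brightest probes. The used probes of Col1a1 and Col1a2, the 2 chains of collagen I, were saturated in Cy5 on all 15 arrays, so no fold is given for them. A second, unsaturated Col1a1 probe read 2.52 ± 0.13 in NSF, 2.61 ± 0.04 in TAF-tib6, 2.72 ± 0.04 in TAF-el4, 2.64 ± 0.09 in TAF-tib42 and 2.25 ± 0.07 in TAF-tib48 (SD, n = 3 each). That probe had a call in the F test (adjusted p = 2.60e-05 in a limma fit of every probe). TAF-tib48 was the lowest source on it, by -0.37 (SE 0.06) against TAF-tib6 (adjusted p = 0.000132). The third Col1a1 probe spanned 0.27 over the sources with no call (adjusted p = 0.0637).

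Col3a1, the chain of collagen III, was lower in TAF-el4 and TAF-tib48 than in the other 3 sources. Its used probe read 2.52, 2.69 and 2.71 in NSF, 2.78, 2.62 and 2.73 in TAF-tib6, 2.11, 2.11 and 1.85 in TAF-el4, 2.79, 2.72 and 2.55 in TAF-tib42 and 1.99, 1.72 and 2.27 in TAF-tib48. The 6 arrays of TAF-el4 and TAF-tib48 lay below the other 9 without overlap. That probe was saturated on all arrays of NSF, TAF-tib6 and TAF-tib42 and on none of TAF-el4 or TAF-tib48, so the differences are bounds. Col3a1 was at least 1.57-fold higher in TAF-tib6 than in TAF-el4 (adjusted p = 8.65e-05) and at least 1.55-fold higher in TAF-tib6 than in TAF-tib48 (adjusted p = 5.08e-05). These bounds set the mean Cy5 signal after normalisation of the saturated arrays against that of the unsaturated ones, and are open to dye bias, since the dyes were not swapped. The adjusted p-values belong to the log ratios of the used probe in limma, saturated arrays included, and do not test the bounds. A dimmer second probe, unsaturated throughout, read 0.62 in NSF, 0.63 in TAF-tib6, 0.22 in TAF-el4, 0.78 in TAF-tib42 and 0.46 in TAF-tib48. On it TAF-el4 was lower than TAF-tib6 by -0.40 (SE 0.06, adjusted p = 0.000118), whereas TAF-tib48 differed from TAF-tib6 by -0.17 (SE 0.06, adjusted p = 0.0688).

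Col2a1, the cartilage fibre collagen, had the widest span of the fibrillar group, but its probes disagreed. The used probe read 2.83, 2.75 and 2.77 in NSF, 2.63, 2.63 and 2.58 in TAF-tib6, 1.84, 1.79 and 1.67 in TAF-el4, 2.71, 2.71 and 2.66 in TAF-tib42 and 1.85, 1.52 and 2.19 in TAF-tib48. TAF-el4 and TAF-tib48 lay below the other 3 sources without overlap, by -1.01 (SE 0.10, adjusted p = 8.48e-07) for TAF-el4 against NSF. The second Col2a1 probe read 0.50, 0.75, 0.61, 0.37 and 0.44 in NSF, TAF-tib6, TAF-el4, TAF-tib42 and TAF-tib48, and over these 5 means the probes correlated at -0.05. Over the same 5 means the used Col2a1 probe correlated at 0.98 with the used Col3a1 probe, the highest of all pairs of called collagens. Of the 7 chondrocyte and osteoblast markers, 5 had a call in the F test, against 42.9% of all genes. Among them Comp (a cartilage and tendon matrix protein) had the widest span, from -0.02 ± 0.07 in TAF-tib42 to 0.90 ± 0.17 in NSF (SD, n = 3 each). The summed Cy5 signal of these markers lay between 1537 and 2181 over all 15 arrays. Their part in the Col2a1 reading was not tested.

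**Figure D2:**
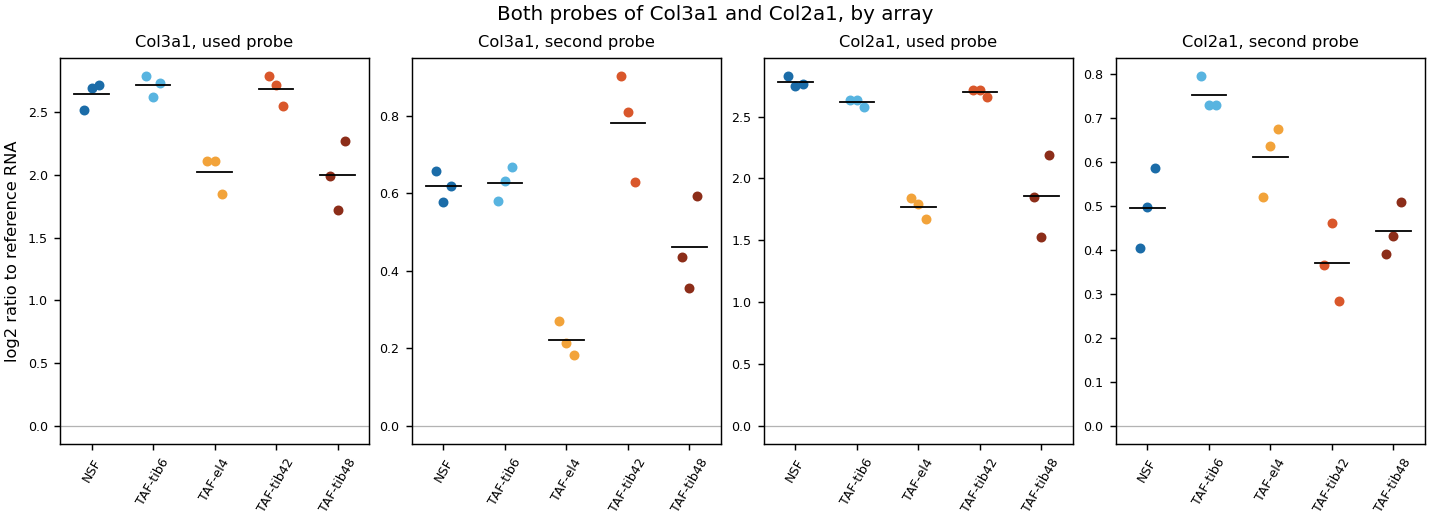
Log2 ratio to the reference RNA on each array (points) with the source mean (bars) for both probes of Col3a1 and of Col2a1; panels have their own vertical scale. TAF-el4 and TAF-tib48 are the lowest sources on both Col3a1 probes, and the order of the sources differs between the Col2a1 probes.

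The minor fibrillar chains each followed an order of their own. Col5a1, a chain of collagen V that starts fibril assembly, was highest in TAF-tib6 (3.22 ± 0.05), against 2.60 ± 0.18 in TAF-tib48 (SD, n = 3 each). Col5a2, its partner chain, was lowest in TAF-tib48 (2.44 ± 0.09) and lay between 2.90 and 3.05 in the other sources. Col5a3 was highest in TAF-tib42 (0.29 ± 0.03) and near or below 0 elsewhere, while a dim second Col5a3 probe spanned 0.07 with no call. Col11a1, a chain of the collagen XI that is found with cartilage and other thin fibrils, was 0.93 ± 0.08 in NSF, 0.78 ± 0.03 in TAF-tib6, 0.70 ± 0.04 in TAF-el4, 0.29 ± 0.07 in TAF-tib42 and 0.32 ± 0.07 in TAF-tib48. A dim second Col11a1 probe spanned 0.21 with no call. In all, 7 of the 10 fibrillar collagens had a call in the F test, against 42.9% of all genes.

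Both measured chains of collagen VI were highest in TAF-tib6 and lowest in TAF-tib48. Col6a1 read -0.45, -0.44 and -0.38 in NSF, 0.11, 0.15 and 0.12 in TAF-tib6, -1.05, -1.10 and -1.11 in TAF-el4, -1.18, -1.20 and -1.33 in TAF-tib42 and -1.84, -1.83 and -1.37 in TAF-tib48. All 9 resistant arrays lay below all 6 sensitive arrays. TAF-tib48 was 3.50-fold lower than TAF-tib6 (-1.81, SE 0.08, adjusted p = 2.20e-11), and all neighbours in the order of sources had a call except TAF-tib42 and TAF-el4 (difference 0.15, adjusted p = 0.228). Col6a2 read 0.07, 0.09 and 0.05 in NSF, 0.60, 0.63 and 0.52 in TAF-tib6, -0.05, -0.06 and -0.20 in TAF-el4, -0.29, -0.21 and -0.33 in TAF-tib42 and -0.49, -0.38 and -0.34 in TAF-tib48, again with no overlap between sensitive and resistant arrays. Over the 5 source means these chains correlated at 0.97. A probe from a clone described as the alpha 2 chain, which the naming rule leaves out, read 0.44, 0.72, 0.31, -0.04 and -0.13 in NSF, TAF-tib6, TAF-el4, TAF-tib42 and TAF-tib48. A predicted transcript described as similar to the alpha 2 chain, whose locus RefSeq's gene table now names Col28a1, read 0.39, 0.19, 0.16, 0.10 and 0.06 in the same order. On that probe NSF rather than TAF-tib6 was highest (TAF-tib6 minus NSF -0.20, adjusted p = 0.00991).

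The third chain of collagen VI went the other way on its bright probe. That probe carries the description of the alpha 3 subunit but no symbol, so it is outside the naming rule and was picked after its values were seen. It read 1.22 ± 0.08 in NSF, 1.57 ± 0.04 in TAF-tib6, 1.59 ± 0.02 in TAF-el4, 1.89 ± 0.08 in TAF-tib42 and 2.19 ± 0.12 in TAF-tib48 (SD, n = 3 each). TAF-tib48 was thus above TAF-tib6 by 0.62 (SE 0.06, adjusted p = 2.51e-07) on this probe, where Col6a1 was below it by -1.81. On a pair of dim probes described as a predicted form of the same chain, the source means lay between 0.06 and 0.27. A further predicted transcript described as similar to the alpha 3 chain read between -0.07 and 0.01 over the sources.

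Collagen VIII had the widest span of all. Col8a1 read 1.77, 1.75 and 1.73 in NSF, 2.18, 2.17 and 2.09 in TAF-tib6, 1.66, 1.64 and 1.59 in TAF-el4, 0.10, -0.05 and -0.09 in TAF-tib42 and 0.13, 0.18 and 0.52 in TAF-tib48. TAF-tib42 and TAF-tib48 thus stood apart at the low end, and TAF-el4 lay just under NSF with no call between them (difference 0.12, adjusted p = 0.382). TAF-tib42 was 4.47-fold lower than TAF-tib6 (-2.16, SE 0.07, adjusted p = 1.73e-13). Col8a2, the partner chain, read -0.08, 0.07 and -0.17 in NSF, 0.94, 0.96 and 0.69 in TAF-tib6, -0.31, -0.20 and -0.25 in TAF-el4, -0.28, -0.42 and -0.44 in TAF-tib42 and -0.43, -0.40 and -0.23 in TAF-tib48. TAF-tib6 was the high source here, 1.90-fold above NSF (0.92, SE 0.08, adjusted p = 1.08e-07), and the other 4 sources had no call between neighbours in their order, although TAF-tib42 (-0.32, adjusted p = 0.00373) and TAF-tib48 (-0.30, adjusted p = 0.00680) were lower than NSF. These calls of TAF-tib42 and TAF-tib48 were lost in limma with the slide pack as a fixed block (adjusted p = 0.202 and 0.216). Col10a1, the short-chain collagen of growth plate cartilage, spanned 0.35, with TAF-tib42 highest (0.14 ± 0.09) and NSF lowest (-0.21 ± 0.10). Its probe was dim (mean log2 intensity 6.30), which limits what this order shows.

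The stretches of 150 bases just before the annotated start sites of these 4 genes are shown as the chain pairs of collagens VI and VIII. In all 4, as in 3 other collagens (Col4a5, Col11a1 and Col16a1), every resistant array lay below every sensitive array. The sequences are RefSeq's, build GRCm38.p6, 5′ to 3′ on the strand of the gene; for Col6a2 the outer of 2 listed starts was taken. Col6a1 lies at chr10:76726045-76726194 and Col6a2 at chr10:76623631-76623780, both on the minus strand. Col8a1 lies at chr16:57754738-57754887 on the minus strand and Col8a2 at chr4:126286644-126286793 on the plus strand. Capitals mark matches to GGGCGG (a GC box), CCAAT or TATAAA on either strand, overlaps included.
Col6a1: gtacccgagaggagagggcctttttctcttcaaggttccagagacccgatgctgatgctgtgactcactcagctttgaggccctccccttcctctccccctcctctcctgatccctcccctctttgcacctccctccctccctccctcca
Col6a2: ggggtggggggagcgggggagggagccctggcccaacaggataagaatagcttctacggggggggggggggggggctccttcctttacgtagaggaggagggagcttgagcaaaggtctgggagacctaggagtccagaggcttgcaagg
Col8a1: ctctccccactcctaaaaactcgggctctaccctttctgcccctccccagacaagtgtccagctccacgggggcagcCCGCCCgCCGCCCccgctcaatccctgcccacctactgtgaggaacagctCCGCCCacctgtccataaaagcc
Col8a2: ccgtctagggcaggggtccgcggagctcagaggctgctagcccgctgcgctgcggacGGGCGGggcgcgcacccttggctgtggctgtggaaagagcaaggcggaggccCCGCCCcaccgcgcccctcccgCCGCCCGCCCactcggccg
Col8a1 held 3 GC boxes and Col8a2 held 4, while neither collagen VI stretch held any of the motifs in this window. GGGCGG was found in 28.6% of 32851 RefSeq stretches of the same length, CCAAT in 24.5% and TATAAA in 7.57%. Of the 35 collagens, 28 had an entry in that table.

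**Figure D3:**
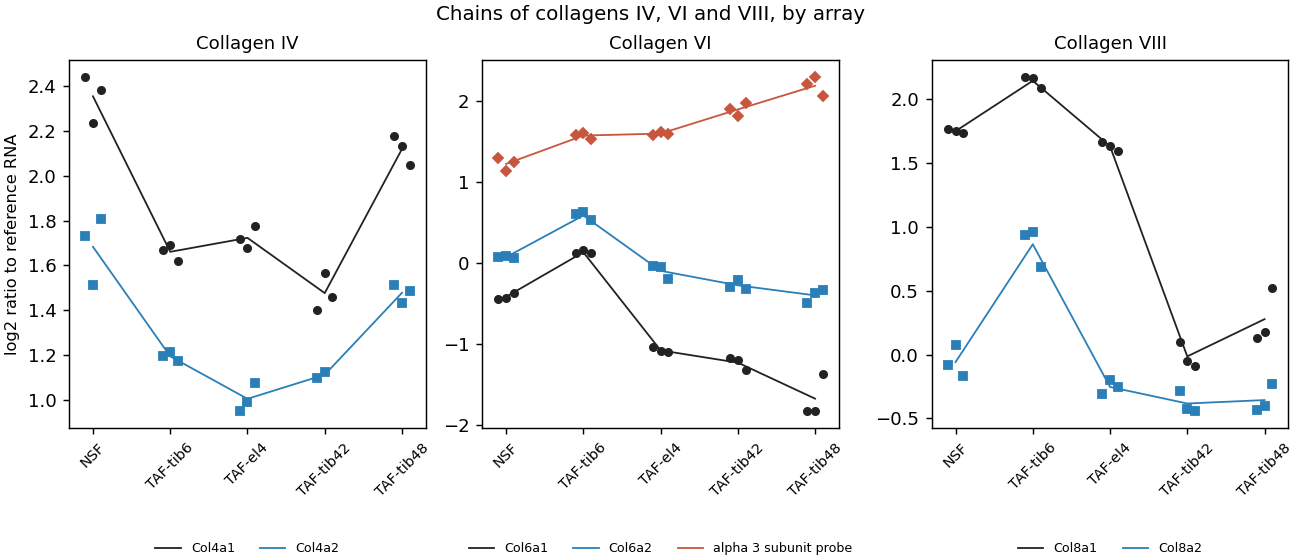
Log2 ratio to the reference RNA on each array (points) and source means (lines) for chains of collagens IV, VI and VIII; panels have their own vertical scale. Col4a1 and Col4a2 are both highest in NSF and TAF-tib48, Col6a1 and Col6a2 peak in TAF-tib6 while the alpha 3 subunit probe is highest in TAF-tib48, and Col8a1 and Col8a2 peak in TAF-tib6.

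In the basement membrane group, the chain pair of the common form of collagen IV ran in parallel over the sources. Col4a1 was 2.35 ± 0.11 in NSF, 2.12 ± 0.07 in TAF-tib48, 1.72 ± 0.05 in TAF-el4, 1.66 ± 0.04 in TAF-tib6 and 1.48 ± 0.08 in TAF-tib42 (SD, n = 3 each). Col4a2 was 1.68 ± 0.15 in NSF, 1.48 ± 0.04 in TAF-tib48, 1.19 ± 0.02 in TAF-tib6, 1.11 ± 0.02 in TAF-tib42 (n = 2, since 1 array was dropped by an outlier flag) and 1.01 ± 0.06 in TAF-el4. The pair correlated at 0.92 over the 5 source means, and on a second probe of each gene NSF and TAF-tib48 were again the highest sources. Col4a1 and Col4a2 are transcribed away from each other from neighbouring start sites. Col4a5, a chain of the collagen IV of kidney and skin basement membranes, was 1.69 ± 0.05 in NSF and 1.66 ± 0.09 in TAF-tib6, and 1.09 ± 0.01, 0.98 ± 0.05 and 0.99 ± 0.11 in TAF-el4, TAF-tib42 and TAF-tib48. Its sensitive and resistant arrays did not overlap. Col4a4 spanned 0.27 with a call, and Col4a3 and Col4a6 had no call on their used probes. A dim second Col4a6 probe spanned 0.19 with a call (adjusted p = 0.0220 in the F test of a limma fit of every probe). A clone probe described as Col4a6, outside the naming rule and picked after its values were seen, spanned from -0.22 ± 0.06 in TAF-el4 to 0.71 ± 0.15 in NSF, while the used Col4a6 probe spanned 0.15.

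The multiplexins each had a source that stood alone. Col15a1 read 0.88, 0.76 and 0.90 in NSF, 0.49, 0.51 and 0.38 in TAF-tib6, 0.11, 0.16 and 0.11 in TAF-el4, 0.47, 0.70 and 0.57 in TAF-tib42 and 1.58, 1.38 and 1.38 in TAF-tib48. TAF-tib48 was above every other source and TAF-el4 below every other source without overlap, 2.50-fold apart (TAF-el4 minus TAF-tib48 -1.32, SE 0.06, adjusted p = 3.19e-11). A dim second Col15a1 probe spanned 0.18 (adjusted p = 0.0419), again highest in TAF-tib48 and lowest in TAF-el4. Of 6 endothelial markers, 3 (Emcn, Cdh5 and Tek) had a call in the F test, near the 42.9% of all genes. Like Col15a1 they were highest in TAF-tib48, with calls against NSF and TAF-tib6. Emcn and Tek were lowest in TAF-tib42 and Cdh5 in TAF-tib6, whereas Col15a1 was lowest in TAF-el4. Pecam1, Vwf and Kdr spanned 0.15, 0.04 and 0.02 with no call. The summed Cy5 signal of all 6 was 1445 to 1633 in TAF-tib48 and 741 to 894 in the other sources. In that list Emcn (endomucin) read 2.04 ± 0.17 in TAF-tib48 against 0.05 to 0.26 elsewhere and Cdh5 (VE-cadherin) 0.74 ± 0.06 against 0.01 to 0.26. Each of the 6 carried the scanner's well-above-background flag on some array of every source, as most probes did. Their part in the result was not tested.

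Col18a1, whose C-terminal fragment is endostatin, read 0.21, 0.26 and 0.18 in NSF, -0.01, -0.16 and -0.11 in TAF-tib6, -1.03, -1.02 and -1.11 in TAF-el4, 0.37, -0.03 and 0.26 in TAF-tib42 and 0.16, -0.06 and 0.26 in TAF-tib48. TAF-el4 alone was low, 2.41-fold below NSF (-1.27, SE 0.08, adjusted p = 4.82e-09), and no neighbours in the order of the other 4 sources had a call. Within those 4, TAF-tib6 was lower than NSF (-0.31, adjusted p = 0.0235) and TAF-tib42 higher than TAF-tib6 (0.29, adjusted p = 0.0156). The second Col18a1 probe gave the same order of TAF-el4 below the rest (-0.72 against 0.01 to 0.22).

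Col7a1, the anchoring fibril collagen, was high in TAF-el4 instead. It read 1.59, 1.43 and 1.53 in NSF, 1.41, 1.33 and 1.46 in TAF-tib6, 2.04, 2.05 and 2.19 in TAF-el4, 0.90, 0.82 and 0.98 in TAF-tib42 and 0.95, 0.89 and 0.83 in TAF-tib48. The sources fell into 3 levels without overlap, with TAF-el4 on top, NSF and TAF-tib6 between and TAF-tib42 and TAF-tib48 at the bottom. TAF-el4 was 2.30-fold above TAF-tib48 (1.20, SE 0.06, adjusted p = 2.70e-11).

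Among FACIT collagens, Col14a1, Col12a1 and Col16a1 carried the differences, and Col9a1, Col9a2, Col9a3 and Col19a1 spanned 0.05 to 0.10 with no call. Col9a1 and Col9a3 were read by dim probes (mean log2 intensity 6.39 and 6.55), which limits what their spans show. Col14a1, which lies on collagen I fibrils, read 3.70, 3.15 and 3.49 in NSF, 3.32, 3.55 and 3.33 in TAF-tib6, 2.40, 2.32 and 2.20 in TAF-el4, 1.62, 1.98 and 1.77 in TAF-tib42 and 2.90, 2.51 and 3.26 in TAF-tib48. TAF-el4 and TAF-tib42 lay below all other arrays, and TAF-tib48 overlapped NSF. TAF-tib42 was 3.15-fold below NSF (-1.65, SE 0.15, adjusted p = 1.31e-07). The lower level of TAF-tib48 than of TAF-tib6 (-0.51, adjusted p = 0.0177) lost its call without TAF-tib48 replicate 2 (-0.32, adjusted p = 0.121) and without TAF-tib6 replicate 2 (-0.43, adjusted p = 0.0761). A dim second Col14a1 probe read 0.04 to 0.16 in all sources.

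Col12a1, which binds collagen I fibrils in tendon and other dense tissue, read 1.73, 1.68 and 1.87 in NSF, 1.66, 1.82 and 1.62 in TAF-tib6, 1.65, 1.58 and 1.42 in TAF-el4, 1.23, 1.30 and 1.45 in TAF-tib42 and 0.62, 0.68 and 0.78 in TAF-tib48. TAF-tib48 was the low source, 2.10-fold below NSF (-1.07, SE 0.07, adjusted p = 2.33e-09). Col16a1 was likewise lowest in TAF-tib48 (0.29 ± 0.18) and highest in NSF (0.88 ± 0.05), and its sensitive and resistant arrays did not overlap, while a dim second Col16a1 probe spanned 0.06 with no call. Of the transmembrane collagens, Col17a1 (a hemidesmosome protein) had a call with a span of 0.29, from 0.01 ± 0.07 in TAF-tib42 to 0.31 ± 0.09 in TAF-el4, and the other 3 spanned 0.07 to 0.13 with no call. A dim second Col17a1 probe spanned 0.14 with no call, and over the source means it correlated at -0.50 with the used probe.

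**Figure D4:**
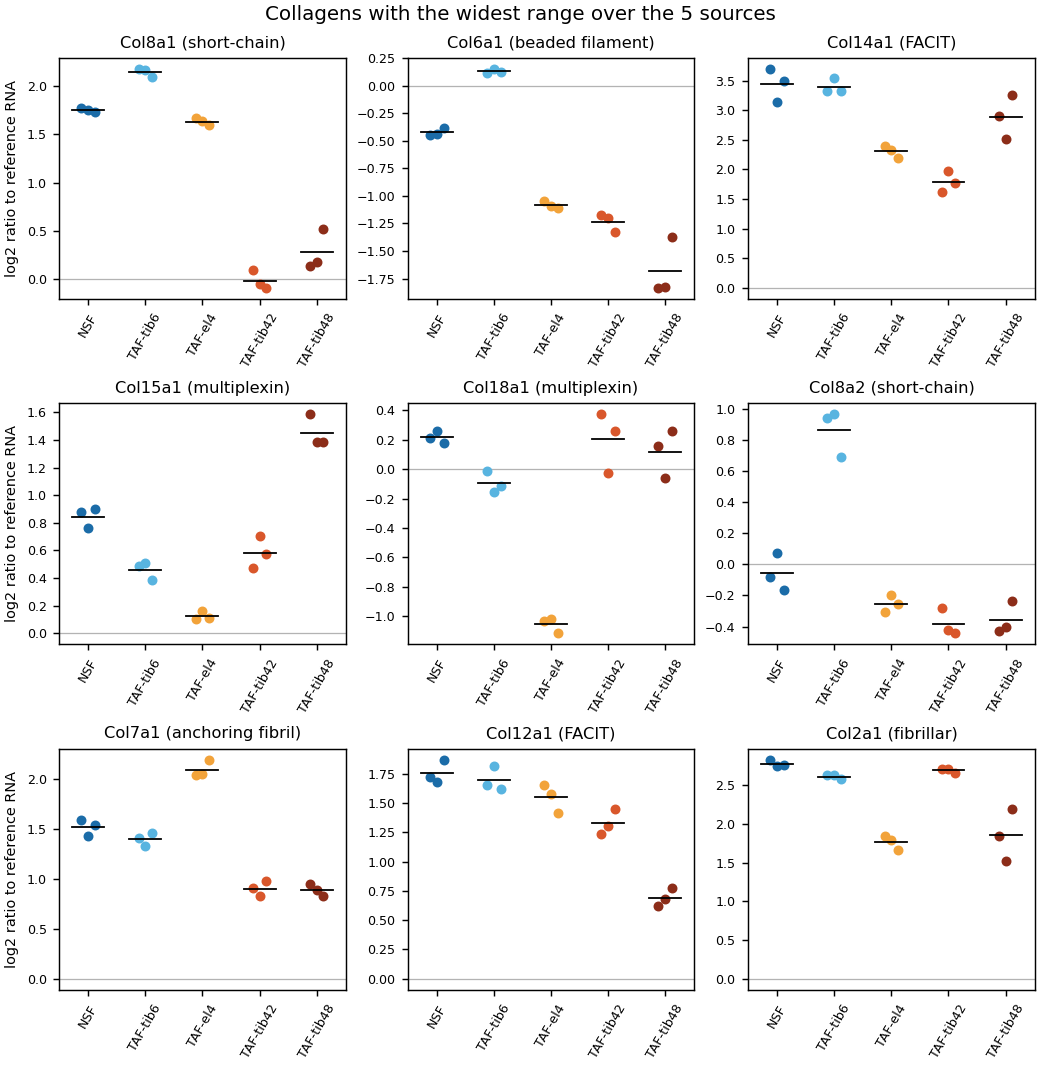
Log2 ratio to the reference RNA on each array (points) and source means (bars) for the 9 collagens whose source means spanned 1 or more with a call in the F test; panels have their own vertical scale. TAF-tib42 and TAF-tib48 are low for Col8a1 and Col7a1, TAF-el4 is low for Col18a1 and Col15a1 and high for Col7a1, and TAF-tib48 is high for Col15a1.

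Each resistant source was compared with the sensitive tumour source TAF-tib6, which asks how resistant and sensitive tumour fibroblasts differ. More collagens were lower than higher in all 3. In TAF-el4, 14 of 35 collagens were lower and 1 was higher, while of all genes tested 20.6% were called, 9.21% lower and 11.4% higher. The largest differences were Col6a1 (-1.21), Col8a2 (-1.12), Col14a1 (-1.09), Col18a1 (-0.96) and Col2a1 (-0.85). Col2a1 is given here and below on its used probe, which its second probe did not follow. In TAF-tib42, 12 were lower and 3 higher against 24.8% of all genes called (13.1% lower, 11.7% higher), led by Col8a1 (-2.16), Col14a1 (-1.61), Col6a1 (-1.36), Col8a2 (-1.25) and Col6a2 (-0.86). In TAF-tib48, 14 were lower and 4 higher against 24.6% called (13.2% lower, 11.5% higher), led by Col8a1 (-1.87), Col6a1 (-1.81), Col8a2 (-1.22), Col12a1 (-1.01) and Col15a1, the exception, which was higher by 0.99. The median difference over the 35 collagens was -0.08 in TAF-el4, -0.05 in TAF-tib42 and -0.09 in TAF-tib48. The 3 comparisons share the TAF-tib6 arrays. TAF-el4 and TAF-tib42 share no slide pack with TAF-tib6. In limma with the pack as a fixed block, Col8a1 lost its call in TAF-el4 (-0.34, adjusted p = 0.223). So did Col12a1 (-0.26, adjusted p = 0.215) and Col18a1 (0.23, adjusted p = 0.440) in TAF-tib42. Markers of cell types moved in the same comparisons. Of 12 fibroblast markers, 5 were lower and 2 higher in TAF-el4, 5 lower and 2 higher in TAF-tib42, and 6 lower and 2 higher in TAF-tib48. Of 6 pericyte and smooth muscle markers, 3 were higher and 1 lower in TAF-el4, 2 higher and 1 lower in TAF-tib42, and 4 higher and 1 lower in TAF-tib48. The summed Cy5 signal of the pericyte and smooth muscle markers was 1624 to 1764 in TAF-tib48 and 1344 to 1371 in TAF-el4. It was 1368 to 1445 in TAF-tib42 and 1296 to 1324 in TAF-tib6. Every marker of both lists carried the scanner's well-above-background flag on all arrays, as most probes did. Their part in the collagen differences was not tested.

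Against NSF the same sources again had more collagens lower than higher. TAF-el4 had 12 lower and 1 higher (17.3% of all genes called, 8.56% lower and 8.75% higher), led by Col18a1 (-1.27), Col14a1 (-1.14), Col2a1 (-1.01), Col15a1 (-0.72) and Col4a2 (-0.68). TAF-tib42 had 14 lower and 4 higher (23.9% called, 13.2% lower and 10.8% higher), led by Col8a1 (-1.76), Col14a1 (-1.65), Col4a1 (-0.88), Col6a1 (-0.81) and Col4a5 (-0.71). TAF-tib48 had 15 lower and 4 higher (26.1% called, 14.4% lower and 11.7% higher), led by Col8a1 (-1.47), Col6a1 (-1.26), Col12a1 (-1.07), Col2a1 (-0.93) and Col4a5 (-0.70). With the slide pack as a fixed block, TAF-tib42 and TAF-tib48 had 10 calls each, and Col8a1, Col6a1, Col4a5, Col7a1 and Col11a1 kept theirs in both. Col8a2 lost its call in both. The share of all genes called in that fit is not reported here, so these counts cannot be set against it. Of the 12 fibroblast markers, 8 were lower and 1 higher than in NSF in TAF-el4, 7 lower and 0 higher in TAF-tib42, and 7 lower and 2 higher in TAF-tib48; their part was not tested.

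The sensitive sources also differed from each other. TAF-tib6 against NSF had 5 collagens higher and 4 lower, where 11.3% of all genes were called, 4.63% higher and 6.71% lower. Col8a2 (0.92), Col6a1 (0.55), Col6a2 (0.51), Col5a1 (0.51) and Col8a1 (0.40) were higher in TAF-tib6, and Col4a1 (-0.69), Col4a2 (-0.49), Col15a1 (-0.39) and Col18a1 (-0.31) were lower. NSF and TAF-tib6 share no slide pack, and with the pack as a fixed block 3 calls were left, Col4a1 (-0.69), Col6a2 (0.53) and Col8a2 (0.81). The share of all genes called in that fit is not reported here. The call of Col18a1 was also lost without NSF replicate 1 (adjusted p = 0.0629), NSF replicate 2 (0.0782), TAF-tib6 replicate 2 (0.0816) or TAF-tib6 replicate 3 (0.0771).

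The resistant sources also differed from each other. TAF-el4 against TAF-tib42 had 8 collagens higher and 7 lower (23.0% of all genes called, 13.3% higher and 9.65% lower), led by Col8a1 (1.65), Col18a1 (-1.26), Col7a1 (1.19), Col2a1 (-0.93) and Col3a1 (at least 1.61-fold higher in TAF-tib42, a bound since its used probe was saturated there). TAF-el4 against TAF-tib48 had 10 higher and 6 lower (23.8% called, 14.1% higher and 9.73% lower), led by Col8a1 (1.35), Col15a1 (-1.32), Col7a1 (1.20), Col18a1 (-1.17) and Col12a1 (0.86). TAF-tib42 against TAF-tib48 had 7 higher and 5 lower (14.3% called, 6.62% higher and 7.64% lower), led by Col14a1 (-1.10), Col15a1 (-0.87), Col2a1 (0.84), Col3a1 (at least 1.59-fold higher in TAF-tib42) and Col4a1 (-0.64).

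The labels' resistant and sensitive sources were then compared with the source as the unit, 3 against 2 source means. No collagen passed the test in limma at an adjusted p under 0.05, where 0.00319% of all genes (1 gene) did. At an unadjusted p under 0.05 there were 7 collagens, all lower in the resistant sources, against 9.20% of all genes. They were Col4a5 (-0.65, SE 0.05, adjusted p = 0.215), Col6a1 (-1.19, SE 0.24, adjusted p = 0.314), Col14a1 (-1.09, SE 0.32, adjusted p = 0.411), Col6a2 (-0.59, SE 0.17, adjusted p = 0.423), Col11a1 (-0.42, SE 0.14, adjusted p = 0.472), Col8a2 (-0.73, SE 0.27, adjusted p = 0.508) and Col8a1 (-1.32, SE 0.51, adjusted p = 0.542). In 10 of 35 collagens (28.6%) all resistant means were below both sensitive means, against 13.0% of all genes; among the 10 is Col9a1, which spanned 0.05. In 1, Col5a3, all resistant means were above, against 13.6%. For 7 collagens (20.0%) every resistant array was below every sensitive array, namely Col4a5, Col6a1, Col6a2, Col8a1, Col8a2, Col11a1 and Col16a1, against 2.37% of all genes, and for 0 collagens every resistant array was above, against 1.68%. With the arrays as units and the source as a random block, 7 collagens had a call, and all were lower in the resistant sources. That run counts arrays although the label belongs to a source, so it adds no evidence to the test on source means. Its share of calls over all genes is not reported here.

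**Figure D5:**
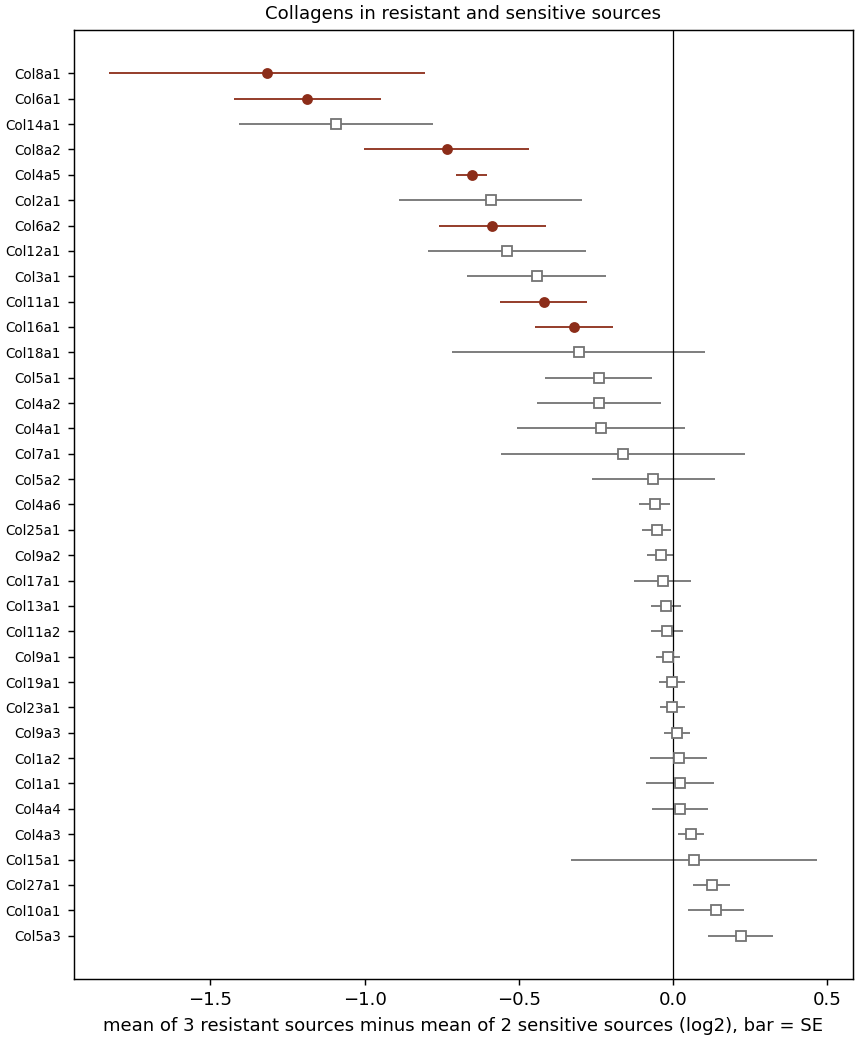
Mean of the 3 resistant sources minus mean of the 2 sensitive sources (log2) for each collagen, with the SE over source means as a bar; filled circles mark the 7 collagens whose resistant arrays all lay below all sensitive arrays. Col8a1, Col6a1 and Col14a1 lie farthest to the left, and Col4a5 has the shortest bar among the large differences; Col1a1, Col1a2 and, in 3 sources, Col3a1 were saturated.

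Genes that make, bind and cut collagen varied over the sources as well. Of 30 measured genes for collagen maturation and secretion, 24 had a call in the F test, against 42.9% of all genes. Lox, the oxidase that starts collagen cross-linking, was 1.60 ± 0.16 in TAF-tib48 and 2.61 to 2.92 in the other sources, and P4ha2, a prolyl hydroxylase that stabilises the helix, was 1.27 ± 0.25 in TAF-tib48 and 1.90 to 2.29 elsewhere (SD, n = 3). Pcolce2, an enhancer of propeptide removal, went the other way, at -0.03 ± 0.13 in TAF-tib48 and -1.88 to -1.23 elsewhere. Loxl3 was highest in TAF-el4 (1.92 ± 0.03) and lowest in NSF (0.83 ± 0.06). Against TAF-tib6, TAF-tib48 had 12 of the 30 lower and 6 higher (all genes 13.2% and 11.5%), TAF-tib42 had 10 lower and 6 higher (all genes 13.1% and 11.7%), and TAF-el4 had 5 lower and 7 higher (all genes 9.21% and 11.4%).

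Of 7 measured collagen receptors, 4 had a call in the F test, near the 42.9% of all genes. Itga11, the alpha subunit of a collagen-binding integrin of fibroblasts, spanned 3.00: it was 5.39 ± 0.12 in TAF-tib6, 4.39 ± 0.16 in NSF, 3.96 ± 0.15 in TAF-el4, 2.84 ± 0.05 in TAF-tib42 and 2.39 ± 0.55 in TAF-tib48 (SD, n = 3 each). Its partner subunit Itgb1 was highest in TAF-el4 (1.48 ± 0.02) and lowest in TAF-tib42 (0.77 ± 0.19). The receptor kinases Ddr1 and Ddr2 spanned 0.54 and 0.35. Of 9 collagen-cleaving proteases 6 had a call, against 42.9% of all genes, led by Mmp2, a gelatinase, which was -0.39 ± 0.22 in TAF-tib48 and 0.19 to 0.94 elsewhere, and by Mmp3, which spanned 0.87. No gene of these 3 lists had a call between resistant and sensitive sources.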

How the data were processed

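Per the file headers, each deposited scanner file gives the spot intensity of both dyes and the software's own log10 ratio of Cy5 to Cy3. The table deposited by the authors holds log2 ratios, and each column matched that array's scanner ratio (slope 1.00, correlation 1.00). Its column medians were 0.0338 to 0.0511, so they were not centred on 0. Agilent Feature Extraction 8.5.1.1 is named in the submitters' processing notes, 9.5 in a protocol label.

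Intensities were background-corrected (normexp, offset 50) and loess-normalised within arrays in limma 3.58.1 (R 4.3.3). Control spots and outlier flags were excluded, while saturated spots stayed in, with repeated spots of a probe averaged. Median Cy5 was 174.7 to 285.9 over a background of 52 to 56; precision is limited by the number of arrays. Of 41174 probes, 22072 were named by accession through a GRCm38.p6 table, 2100 by description, and 17002 kept the name in the file. A gene was tested if Cy5 was well above background on all 3 arrays of a source. One lmFit and eBayes fit of 15 arrays gave the F test and the 10 pairs, and limma on 5 source means compared resistant with sensitive sources. Tests were two-sided, with Benjamini-Hochberg adjustment over the genes tested, and the steps were tested on simulated data.

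Replicate numbers are shared by all sources but did not pair the arrays: of 30 same-numbered pairs, deviations correlated at -0.19 to 0.17, and 2 exceeded 0.1. Array values are given for collagens with a called span of at least 1, the 5 largest called differences are named per comparison, and up to 4 called genes with the largest span are named per list of other genes. The collagens and lists were chosen with earlier results of these data known. Alternatives were other background and normalisation settings, the scanner's and the authors' ratios, Cy5 alone, no filter, the mean over probes, slide packs, and leaving out arrays or sources.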

Additional observations from a re-analysis of the deposited data

How the results depend on the processing

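Out of 2954 values of named collagen differences under the alternative runs, 64 lost a call, 20 gained one and 0 were labelled reversed. These labels go by calls, and the sign of a difference without a call can change. The sign also differed between probes. TAF-tib6 minus NSF was -0.17 with no call on the used Col2a1 probe. On the second Col2a1 probe it was 0.26 with a call (adjusted p = 0.00579 in a limma fit of every probe). With the slide pack as a fixed block, chosen after seeing the data, collagen calls went to 10 for TAF-tib42 against NSF, 10 for TAF-tib48 against NSF and 3 for TAF-tib6 against NSF. The shares of all genes called in that fit are not reported here. With the source as a random block over arrays, 7 collagens had a call between resistant and sensitive sources, against 0 on source means. That run counts arrays, while the label belongs to a source. The cause of these changes was not tested. All other alternatives left each count within 1.5 times its value. With the replicate number as a block, which did not pair the arrays, calls were 15 for TAF-el4 against TAF-tib6, 19 for TAF-tib48 against TAF-tib6, 10 for TAF-tib6 against NSF, 24 over the 5 sources and 0 between resistant and sensitive sources. Without single arrays, calls over the 5 sources ranged from 23 to 25, those of TAF-tib42 against TAF-tib6 from 12 to 15 and those of TAF-tib6 against NSF from 8 to 12. Saturation limits Col1a1, Col1a2 and Col3a1, and dim second probes that moved little limit Col5a3, Col11a1, Col14a1, Col15a1, Col16a1 and Col17a1. Col4a6 had a call on its dim second probe and none on its used probe. Col2a1 is limited by a second probe with its own call (adjusted p = 0.000164 in the F test of a limma fit of every probe). That probe correlated at -0.05 with the used one over the source means.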

Other observations

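A probe described as similar to the alpha 1 chain of collagen XXIV carries no symbol and is outside the naming rule. It was picked after its values were seen. It read -0.33 ± 0.06 in NSF, 0.53 ± 0.12 in TAF-tib6, -0.52 ± 0.05 in TAF-el4, 0.26 ± 0.06 in TAF-tib42 and -0.70 ± 0.19 in TAF-tib48 (SD, n = 3 each), with an adjusted p of 3.89e-10 in the F test of a limma fit of every probe. TAF-tib6 and TAF-tib42 lay above the other 3 sources. In all, 17 probes with a collagen description fell outside the rule, and so did 2 probes under older names whose accessions RefSeq's gene table lists under Col26a1 and Col6a6.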
